A study of Mus musculus with 18 samples.

Results

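The mineralized zone was compared with the resting/proliferating zone of mouse tibiae cultured with C-type natriuretic peptide (CNP). The arrays were chosen by their titles, which gave 3 CNP mineralized and 3 CNP resting/proliferating arrays, 6 of the 18 arrays and 2 of the 6 groups of the study. The bones came from CD1 embryos of both sexes at stage E15.5 and spent 6 days in minimal medium. CNP at 1e-06 M was added on days 1, 3 and 5, and the vehicle cultures, used here for 1 comparison, received the albumin and hydrochloric acid vehicle on the same days. All groups share strain, stage, medium and culture time, and the CD1 bones carried no engineered allele that the labels name. On day 6 each bone was cut into a resting/proliferating, a hypertrophic and a mineralized piece, and the pieces of a zone from about 24 tibiae were pooled, so that a value stands for a pool of bones and the 2 zones of a culture come from the same bones. Cultures are numbered 2, 3 and 4, and each mineralized array was paired with the resting/proliferating array of its culture.

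A growth plate lays out cartilage differentiation in space. Resting and proliferating chondrocytes make a matrix of type II collagen and aggrecan, then enlarge into hypertrophic cells that make type X collagen and mineralize their surroundings. At the mineralized end vessels, osteoclasts and bone-forming osteoblasts replace the cartilage. CNP binds the receptor encoded by Npr2, which makes cyclic GMP, and promotes the growth of cartilage bone templates.

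Each array is an Affymetrix one-colour array, read as 1 linear signal per probe set. Values below are quantile-normalized signals. Differences are log2 differences of signal plus 16, mineralized minus resting/proliferating, with the standard error (SE) of a limma fit of all 18 arrays that holds the culture as a block. A gene is called where the adjusted p lies under 0.05, and a gene read by several probe sets is given by the brightest of those that carry no other symbol. Adding 16 understates the change of dim genes. In bulk tissue, fewer cells of a type and less RNA per cell cannot be told apart.

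The 2 zones differed widely. Of 27022 probe sets tested, 10035 were called (37.1%), 4934 higher in the mineralized zone (18.3%) and 5101 lower (18.9%). Of these, 593 were at least 4-fold higher and 333 at least 4-fold lower. By genes, 5654 of 13260 were called (42.6%), 2714 higher (20.5%) and 2940 lower (22.2%), with a median log2 difference of -0.05 over all genes tested. The 3 cultures agreed in sign for 98.4% of the called probe sets and for 59.7% of all tested. Their differences scattered with a median SD of 0.313 on the log2 scale, against 0.264 among the vehicle cultures. By culture, 5912, 4508 and 5438 probe sets lay at least 2-fold apart in cultures 2, 3 and 4.

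Technical measures also moved with zone. The actin 3'/5' ratio, a sign of RNA integrity, was 1.81, 1.59 and 1.87 in the mineralized arrays of cultures 2, 3 and 4 and 4.76, 2.55 and 4.85 in the resting/proliferating arrays. It was lower in the mineralized array of each pair (1.76 ± 0.15 against 4.05 ± 1.3, SD, n = 3; exact sign permutation p = 0.25, two-sided, the smallest that 3 pairs allow). The Gapdh ratio moved the other way, at 1.96 ± 0.11 against 1.67 ± 0.36, and the median signal before normalization was 109 ± 35 against 86.2 ± 24. Fluidics runs were inferred from the logged hybridization times, joining arrays that followed each other within 30 minutes. By this rule both zones of culture 4 shared a fluidics run, whereas those of cultures 2 and 3 were in different runs. By the same log, the arrays of culture 3 in both treatments were hybridized on a different day from those of cultures 2 and 4. Culture 3 and its hybridization day cannot be told apart. The resting/proliferating array of CNP culture 2 had an aborted fluidics log, whereas the mineralized array of that culture did not. The part of these measures in the differences below was not tested. Over all genes, 2057 of 13193 were called higher and 945 lower without normalization. With the run as a block, 1798 of 13260 were higher and 1814 lower. List counts given below for these 2 settings stand beside these totals.

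**Figure D1:**
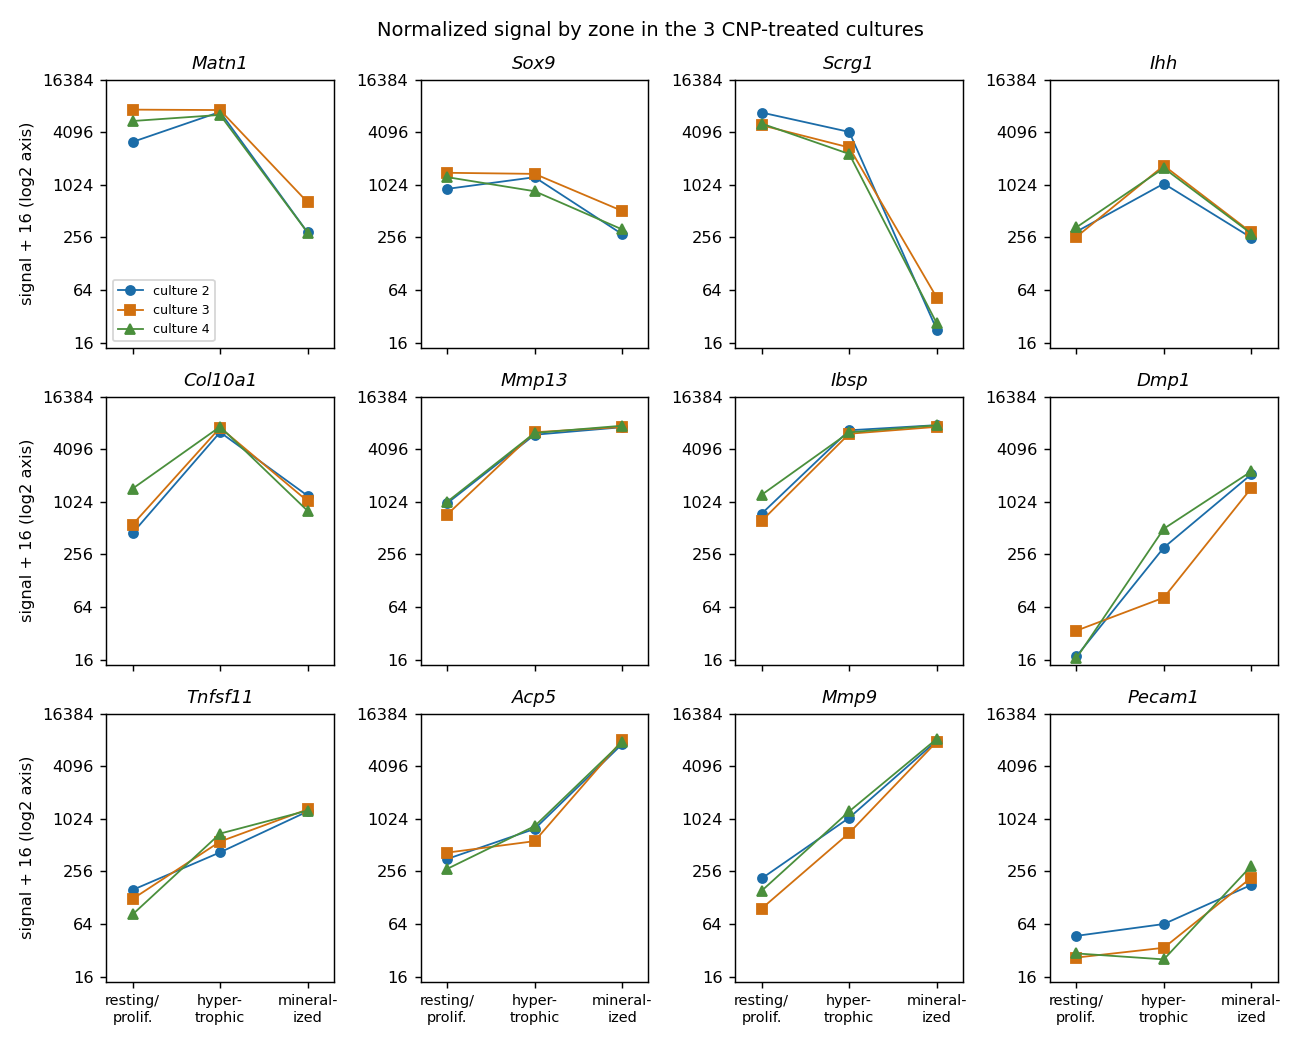
Normalized signal plus 16 of 12 genes (log2 axis) in the resting/proliferating, hypertrophic and mineralized zone of the 3 CNP-treated cultures, with each line joining the 3 arrays of a culture. Matn1, Sox9 and Scrg1 were lowest in the mineralized zone, Ihh and Col10a1 highest in the hypertrophic zone, and the other 7 genes highest in the mineralized zone.

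The promoters of 4 genes are shown because members of the RUNX, SOX and AP-1 families govern bone and cartilage genes. Mmp13 was higher in the mineralized zone, and Ucma, Matn1 and Epyc were lower. Mmp13 encodes a collagenase of hypertrophic cartilage and bone, and Ucma, Matn1 and Epyc encode cartilage matrix proteins. The 4 were picked after motif matches were seen. Each stretch is the 250 bases before the RefSeq start of the gene in build GRCm38.p6, plus strand, at chr9:7272264-7272513 for Mmp13, chr2:4975872-4976121 for Ucma, chr4:130944135-130944384 for Matn1 and chr10:97643818-97644067 for Epyc. Capitals mark matches to TGTGGT or ACCACA (RUNX), AACAAT or ATTGTT (SOX) and TGANTCA (AP-1), searched on both strands; the matches shown do not overlap. Epyc has 2 starts in the table, of which 1 is shown.
Mmp13: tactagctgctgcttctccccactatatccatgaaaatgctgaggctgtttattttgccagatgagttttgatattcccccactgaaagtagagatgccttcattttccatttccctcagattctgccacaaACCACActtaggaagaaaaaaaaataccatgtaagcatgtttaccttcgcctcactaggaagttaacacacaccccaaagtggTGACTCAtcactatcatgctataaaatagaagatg
Ucma: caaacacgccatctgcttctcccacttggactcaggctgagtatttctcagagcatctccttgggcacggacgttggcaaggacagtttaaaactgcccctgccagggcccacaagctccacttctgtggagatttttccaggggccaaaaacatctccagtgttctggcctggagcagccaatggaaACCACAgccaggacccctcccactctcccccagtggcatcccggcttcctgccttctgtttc
Matn1: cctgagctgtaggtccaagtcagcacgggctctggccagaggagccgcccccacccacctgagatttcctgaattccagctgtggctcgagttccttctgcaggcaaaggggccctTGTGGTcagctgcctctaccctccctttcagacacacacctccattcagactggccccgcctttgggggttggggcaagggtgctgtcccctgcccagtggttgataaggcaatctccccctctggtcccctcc
Epyc: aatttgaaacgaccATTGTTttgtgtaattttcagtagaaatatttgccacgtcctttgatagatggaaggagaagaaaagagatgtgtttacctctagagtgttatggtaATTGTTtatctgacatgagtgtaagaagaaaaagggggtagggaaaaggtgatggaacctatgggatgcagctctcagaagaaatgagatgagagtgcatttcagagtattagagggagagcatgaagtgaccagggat
Mmp13 held a RUNX match 118 bases and an AP-1 match 35 bases before the start, Ucma and Matn1 each held a RUNX match, and Epyc held 2 SOX matches. Over 27025 genes the RUNX letters were in 14.2% of such stretches, the SOX letters in 9.65% and the AP-1 letters in 6.87%. Among the cartilage matrix genes called lower, 14 of 18 were in the promoter table, with 3 RUNX, 2 SOX and 1 AP-1 promoters. Among the osteoblast genes called higher, 14 of 20 were in the table, with 1 promoter for each motif, and among the osteoclast genes called higher 8 of 15, with 1 RUNX promoter and none of the others. Of the 15 highest genes 9 were in the table, with 1 RUNX promoter and none of the others. Of the 15 lowest genes 9 were in it, with 1 RUNX and 1 AP-1 promoter and none with SOX. A match is a description of letters and not a bound site.

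Cartilage matrix genes were lower in the mineralized zone. All 24 listed cartilage matrix proteins passed the filter on dim probe sets, 18 were called lower and 0 higher, and their median log2 difference was -1.73. Scrg1, a gene first described in scrapie-infected brain and expressed in cartilage, had the largest fall of any gene tested. Its signals in cultures 2, 3 and 4 were 6879.6, 4919 and 5138 in the resting/proliferating zone and 6.53, 36.5 and 10.7 in the mineralized zone. The zones did not overlap, and the log2 difference was -7.47 ± 0.33 (SE, n = 3 pairs; limma adjusted p = 5.35e-10). Ucma, a small matrix protein of the upper growth plate, fell from 5279.7, 6200.1 and 5095 to 71.4, 98.1 and 5.94 (log2 -6.52 ± 0.31; limma adjusted p = 1.06e-09). The other tested probe set of Ucma gave -3.82. Epyc, a small leucine-rich proteoglycan of cartilage, fell from 9162, 8616 and 9486 to 431, 561 and 399.9 (log2 -4.26 ± 0.15). Every mineralized array lay below every resting/proliferating array for both genes.

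The major structural genes fell less than these. Acan, the aggrecan core protein, was at 5216, 5460.0 and 4238 in the resting/proliferating zone and 1466, 1785 and 1239 in the mineralized zone (log2 -1.73 ± 0.14; limma adjusted p = 2.7e-07). Col2a1, the type II collagen chain, was at 5129, 6889.7 and 5984 against 2789, 4406 and 3817 (log2 -0.72 ± 0.14; limma adjusted p = 0.000727). Both pairs of groups stayed apart, but Col2a1 lost its call when the fluidics run was added as a block (adjusted p = 0.0621). Matn1, a matrilin of proliferating cartilage, fell by 3.74 on the log2 scale, from 3162, 7433 and 5500.4 to 276, 633 and 275, and Col9a2, a type IX collagen chain, had a log2 difference of -3.99 ± 0.29. Col11a1, Comp and Fmod were among the 6 members not called (0.12, -0.23 and -0.20), and are named after their values were seen.

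Several regulators of the chondrocyte program fell as well. Sox9, the factor that specifies chondrocytes, was at 906, 1393 and 1241 in the resting/proliferating and 264, 499.8 and 301 in the mineralized zone (log2 -1.72 ± 0.23; limma adjusted p = 2.99e-05). Sox5, its partner on cartilage enhancers, fell from 675, 1088 and 823 to 44.5, 48.4 and 51.2 (log2 -3.75 ± 0.19), and Sox6, its other partner, had a log2 difference of -1.87 ± 0.24. None of the 3 genes had overlapping zones. Their other tested probe sets ranged from -1.46 to -0.157 for Sox9, -3.75 to -0.562 for Sox5 and -0.979 to -0.235 for Sox6. Of 16 chondrocyte transcription factors tested, 8 were called lower and 3 higher, Dlx6 (log2 2.01 ± 0.26), a homeobox factor of bone and hypertrophic cartilage, among the latter, and the median was -0.84. Fgfr3, the receptor that restrains chondrocyte proliferation, fell from 3253, 4171 and 3861 to 1570.1, 1619 and 1733 (log2 -1.18 ± 0.11; limma adjusted p = 9.67e-07).

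Genes of resting and articular-side chondrocytes split. Of 13 tested, 8 were called lower and 2 higher (5 and 3 with the run as a block), with a median of -0.88. Sfrp5, a secreted WNT antagonist, fell from 567, 1399.8 and 1476 to 54.6, 102 and 113 (log2 -3.39 ± 0.37), with no overlap. Wif1, another secreted WNT antagonist, rose from 453, 539.6 and 483 to 4244, 4351 and 4538 (log2 3.12 ± 0.16; limma adjusted p = 2.33e-09), also with no overlap. Of the glycosaminoglycan synthesis and sulfation genes 8 of 20 tested were called lower and 4 higher, with a median of 0.12 that was -0.18 with median centring and -0.05 without culture 2, led by Csgalnact1, which starts chondroitin sulfate chains (-2.45), and Papss2, which makes the sulfate donor (-2.20).

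Ihh and Col10a1 were higher on average in the hypertrophic zone than in either end zone. Ihh, the signal of prehypertrophic cells, was at 282, 244 and 318 in the resting/proliferating zone, 1042, 1686 and 1579 in the hypertrophic zone and 239, 276 and 267 in the mineralized zone. Its 2 end zones overlapped and their log2 difference was -0.10 ± 0.21 (limma adjusted p = 0.76). Col10a1, the type X collagen gene of hypertrophic cells, read 434, 547 and 1436 in the resting/proliferating zone, 6410.1, 7245 and 7417 in the hypertrophic zone and 1189.9, 1029.5 and 793 in the mineralized zone (log2 0.49 ± 0.45; limma adjusted p = 0.436). Culture 4 gave the highest resting/proliferating value and the lowest mineralized value of Col10a1. Vegfa, the vessel growth factor, was not called either (0.16 ± 0.21).

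Several genes of hypertrophic cells and of matrix breakdown were higher in the mineralized than in the resting/proliferating zone. Mmp13, the collagenase of late hypertrophic cells and osteoblasts, rose from 972, 717 and 1009.9 to 7323, 7367 and 7611 (log2 3.04 ± 0.23; limma adjusted p = 1.16e-07). Pth1r, the receptor for parathyroid hormone and its related peptide, rose from 353, 766 and 1155 to 3430.4, 3682 and 3370.4 (log2 2.33 ± 0.25). The groups of both genes stayed apart. Of 17 prehypertrophic and hypertrophic genes tested, 8 were called higher and 3 lower, with a median of 0.49. The list holds Atp6v0d2, better known from osteoclasts, and Sp7, also on the osteoblast list. Without culture 2, 3 or 4 its median was 0.148, 0.289 and 1.15, and with the run as a block 0.0452. Of 12 proliferating chondrocyte genes tested, 2 were called higher and 4 lower, with a median of -0.16. Of 26 matrix proteases and inhibitors tested, 15 were called higher and 3 lower (1 lower without normalization and 0 with the run as a block).

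Most bone-forming genes were higher in the mineralized zone, and Dmp1, Ifitm5, Col22a1 and Phex, 4 of the 15 highest genes, are on the osteoblast list. Of 24 osteoblast and osteocyte genes measured, all were tested, 20 were called higher and 2 lower, and the median was 1.86. Dmp1, an acidic matrix phosphoprotein of osteocytes, was first among the 15 highest genes. It was at 1.39, 18.3 and 0.6 in the resting/proliferating zone and 2101, 1458 and 2273 in the mineralized zone, with no overlap (log2 6.49 ± 0.46, SE, n = 3 pairs; limma adjusted p = 5.31e-08). Because the lower signals are near 0, its log2 difference depended on the number added before the log, at 8.83 with 1 and 4.81 with 64, where Mmp9 (5.37), Car3 (5.11), Col22a1 (5.01), Ptprz1 (4.96) and Ifitm5 (4.94) stood above it. Ifitm5, a membrane protein of mineralizing osteoblasts, rose from 26.2, 20.9 and 52.5 to 3199.6, 2759 and 2711 (log2 5.93 ± 0.21). Phex, an osteocyte membrane endopeptidase that limits phosphate loss in the kidney through FGF23, rose from 67.7, 68.3 and 98 to 3504, 3283 and 3473 (log2 5.21 ± 0.22). The other tested probe set of Phex gave 1.86.

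Ibsp, the bone sialoprotein gene, was high in the hypertrophic zone already. Its signals were 736, 606 and 1221 in the resting/proliferating, 6747, 6161 and 6398 in the hypertrophic and 7733, 7392 and 7702 in the mineralized zone (log2 3.19 ± 0.17 between the outer zones; limma adjusted p = 2.69e-09). Alpl, the tissue-nonspecific alkaline phosphatase that removes pyrophosphate, rose from 540.3, 447 and 643 to 4809, 4489 and 3826 (log2 2.98 ± 0.17), and Sp7, an osteoblast transcription factor, from 344, 308 and 291 to 2397, 1674 and 1732 (log2 2.55 ± 0.14). Neither pair of groups overlapped. Col22a1, a collagen of tissue junctions, had a log2 difference of 5.78 ± 0.24, and Col13a1, a transmembrane collagen, 4.85 ± 0.23. The other tested probe sets of Col22a1 gave 1.85 to 4.19.

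Col1a1, the type I collagen chain of bone, varied by culture. It was at 2474, 1104 and 1987 in the resting/proliferating zone and 12063, 1775 and 12372 in the mineralized zone, so culture 3 stood far below the other mineralized arrays and the groups overlapped (log2 1.86 ± 0.31; limma adjusted p = 0.000218). The vehicle mineralized arrays had the same low member, at 11528, 3223 and 11528 in cultures 2, 3 and 4 (arrays where a probe set has the same rank share a quantile-normalized value). Without CNP culture 3 the difference was 2.45, and the other tested probe set of the gene gave 3.26. Culture 3 of both treatments was hybridized on a different day from cultures 2 and 4, and the part of the day was not tested. Of 8 phosphate and pyrophosphate genes tested, 5 were called higher and 1 lower, with Smpd3, a sphingomyelinase needed for bone mineralization, at 1.72. Both genes of the pair that sets osteoclast formation moved, in opposite directions. Tnfsf11, which encodes the osteoclast-inducing ligand RANKL, rose from 141, 108 and 66.5 to 1230.3, 1301 and 1259 (log2 3.45 ± 0.25; limma adjusted p = 6.59e-08). Tnfrsf11b, which encodes its decoy receptor osteoprotegerin, fell from 1039, 1003 and 1132 to 528, 449.6 and 511 (log2 -1.07 ± 0.15; limma adjusted p = 5.62e-05). The zones did not overlap for either gene, and the Tnfrsf11b call was lost without normalization (adjusted p = 0.0911).

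Osteoclast genes were higher in the mineralized zone. Of 18 measured osteoclast fusion and resorption genes, 17 passed the filter, 15 were called higher and 0 lower, and the median was 3.55. Mmp9, a gelatinase of osteoclasts, was at 197, 80.5 and 138 in the resting/proliferating zone and 8020.4, 7833 and 8429 in the mineralized zone (log2 5.79 ± 0.21; limma adjusted p = 1.12e-10). Acp5, the tartrate-resistant acid phosphatase used to stain osteoclasts, rose from 340.0, 405 and 258 to 7346, 8093 and 7756 (log2 4.49 ± 0.19; limma adjusted p = 3.72e-10). The zones were separate for both genes.

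Genes of osteoclast fusion and acid secretion had the same pattern. Ocstamp, needed for osteoclast precursors to fuse, rose from 6.36, 15.4 and 2.51 to 774, 1108 and 1061 (log2 5.39 ± 0.27). Atp6v0d2, a proton pump subunit of osteoclasts, rose from 112, 55.3 and 49.5 to 2578, 2848 and 2198 (log2 4.92 ± 0.21). Slc9b2, a sodium/hydrogen exchanger of osteoclasts, rose from 19.9, 34.1 and 43.2 to 1759.7, 2100.0 and 2027 (log2 5.38 ± 0.24), and all 3 genes had separate groups. Ctsk, the collagen-degrading protease cathepsin K, rose from 2109, 1007 and 1174 to 9040.2, 8856 and 8556 (log2 2.69 ± 0.22). The 2 tested members not called were Tnfrsf11a, the receptor of RANKL (-0.08), and Src (0.16), named after their values were seen. Of 20 lysosomal proton pump and cathepsin genes, 17 were called higher and 0 lower with a median of 0.85, but with median centring 11 were called higher and 1 lower.

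**Figure D2:**
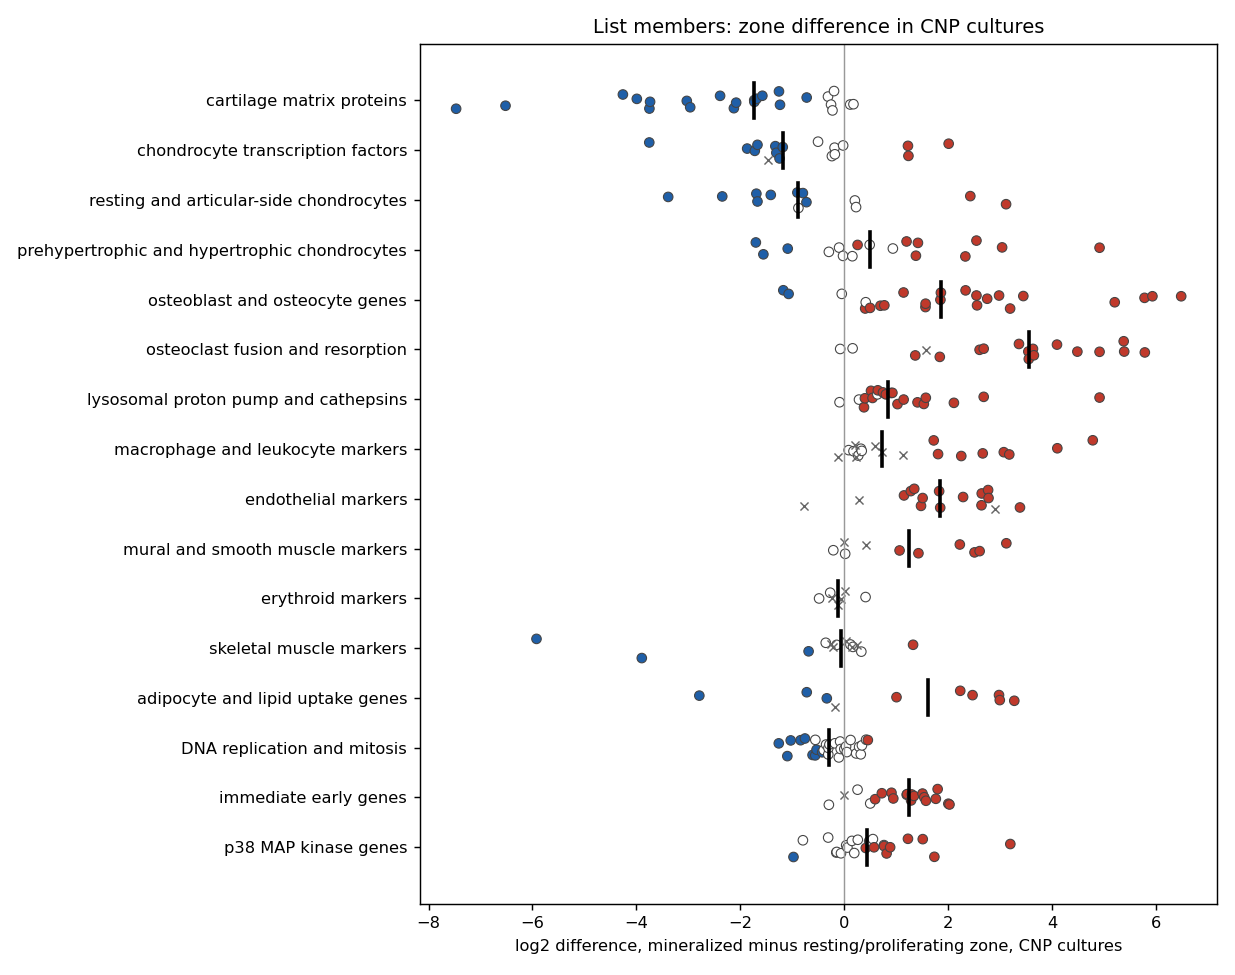
Log2 difference of mineralized minus resting/proliferating zone in CNP cultures (x axis) for each member of 16 gene lists, with red circles called higher, blue called lower, open circles tested and not called, and crosses below the filter on dim probe sets. The black bar is the median of the members on the array. Osteoclast and osteoblast genes lie mostly to the right and cartilage matrix genes to the left, with median log2 differences of tested members of 3.55, 1.86 and -1.73.

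Cells of vessels and blood were followed by lists of marker genes. Endothelial markers rose: 13 of the 16 measured passed the filter, 13 were called higher and 0 lower, and the median of tested members was 1.85. The summed signal of the 16 markers ran from 1780.1 to 2133 in the resting/proliferating arrays and from 8390.1 to 9298 in the mineralized arrays, with no overlap. Pecam1, an adhesion molecule of endothelium, was at 30.9, 10.5 and 13.5 against 164, 202 and 281 (log2 2.77 ± 0.38; limma adjusted p = 4.24e-05), and Cd34, a surface protein of endothelium and progenitors, at 145, 116 and 113 against 1391, 1369.9 and 1579 (log2 3.38 ± 0.21). The 3 endothelial markers below the filter, Tie1, Flt1 and Vwf, had log2 differences of 2.91, 0.28 and -0.78, untested. Of 10 mural and smooth muscle markers measured, 8 were tested, 6 were called higher and 0 lower, led by Mcam (3.12) and Notch3 (2.61), and the sum of the 10 was 4552 to 7020.2 in the resting/proliferating and 17057 to 17458 in the mineralized arrays.

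Some macrophage and leukocyte markers rose. Of 19 measured, 13 passed the filter, 8 were called higher and 0 lower, and the median over all 19 was 0.74. Cd68, a lysosomal glycoprotein of macrophages and osteoclasts, rose from 124, 99.8 and 61.4 to 2611, 3394 and 2911 (log2 4.78 ± 0.27; limma adjusted p = 6.03e-09), and Csf1r, the receptor for macrophage colony-stimulating factor, from 1037, 669 and 534 to 6121, 6209 and 6161 (log2 3.07 ± 0.21). The groups of both stayed apart. Adgre1, the F4/80 antigen of macrophages, was not called (0.18), and the complement genes C1qa and C1qc fell below the filter. The sum of the 19 markers ran from 2216 to 3778 in the resting/proliferating arrays and from 17989 to 19029.9 in the mineralized arrays. Their part in the osteoclast result was not tested.

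Blood cell and muscle markers gave smaller or opposite signals. No erythroid marker was called among the 3 that passed the filter of 7 measured, and Gata1, a red cell transcription factor, read 144, 95.2 and 110.1 in the resting/proliferating zone against 90.3, 71.3 and 73 in the mineralized zone (limma adjusted p = 0.431). The erythroid sum was 499.7 to 633 against 494 to 587, with overlapping groups. Kit, a receptor of mast cells and blood progenitors, was the called member of the megakaryocyte and mast cell list (107, 70.9 and 92.7 against 811, 630.4 and 836; log2 2.87 ± 0.26). The sums of those 11 markers were 957 to 1277 against 1595 to 1831. The rise in that sum came from Kit, and the median of the 7 tested markers was -0.147. Of 4 neutrophil and lymphoid markers tested, 1, Ngp, was called lower and 0 higher, a call lost in 16 of 26 alternatives, among them median centring and leaving out culture 2, with sums of 772 to 1028 against 583 to 644 over the 12 measured. Among 9 skeletal muscle markers tested of 14 measured, 3 were called lower and 1 higher (2 and 0 without culture 2 or 3). Tnni2, a fast troponin, fell from 2236, 1855 and 1589 to 10.9, 18.1 and 17 (log2 -5.92 ± 0.25), and Tnnt3, another troponin, by 3.90 on the log2 scale, while Acta1, Myh3 and Myog, which define muscle, were below the filter. The muscle sums were 2865 to 3679.5 against 856 to 1078, and their part in the differences of other genes was not tested. Tnni2 and Tnnt3 supplied most of the fall in the muscle sum, and the median of the 9 tested markers was -0.145.

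Fat-related and perichondrial genes split. Of 9 adipocyte and lipid uptake genes tested, 6 were called higher, led by Adipoq, the hormone adiponectin (11.1, 32.3 and 21.8 against 241, 458 and 350.3), and Pparg, the adipocyte nuclear receptor that osteoclast precursors also express (2.98 ± 0.39). Plin4, a lipid droplet coat protein, was among the 3 called lower (-2.79 ± 0.51; 1 was lower without normalization or with the run as a block). Of 23 perichondrium, tendon and fibroblast genes, 11 were called higher and 7 lower. Tnc, the matrix protein tenascin C, rose from 495, 431 and 355 to 5269, 5799.7 and 6010.0 (log2 3.70 ± 0.19), and Mkx, a tendon transcription factor, fell from 401, 539.8 and 427 to 74.1, 90.7 and 79.9 (log2 -2.27 ± 0.20). S100b, on the Schwann cell list but also expressed by chondrocytes, fell from 4412, 4559.7 and 4696 to 314, 337 and 332 (log2 -3.73 ± 0.13). Of the 7 Schwann and nerve genes tested 3 were called lower and 1 higher. The adipocyte list summed to 8321 to 9965 in the resting/proliferating against 17231 to 18445 in the mineralized arrays, and the Schwann list to 9534 to 10302 against 2402 to 3391. S100b and Pmp22 (log2 -1.43 ± 0.13) supplied most of the Schwann sum, and the median of the 7 tested genes was -0.317.

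Some genes of cell division fell. Of 29 DNA replication and mitosis genes tested, 9 were called lower (31%, against 22.2% of all genes) and 1 higher (3.45%, against 20.5%). Their median was -0.28, and the median in vehicle cultures was 0.06. Cdk1, the mitotic kinase, fell from 3074, 2104 and 2685 to 1332, 1059.9 and 1419.7 (log2 -1.03 ± 0.17; limma adjusted p = 0.000195). Gmnn, which keeps DNA from being replicated again within a cycle, fell from 2303, 1367 and 2191 to 762, 877 and 1031 (log2 -1.09 ± 0.22). The zones were apart for both, while Mki67, a marker of cycling cells named after its values were seen, had a log2 difference of -0.18. The number called lower was 4 with the run as a block, 3 without normalization, and 9, 6 and 7 without culture 2, 3 and 4. Over all genes the same settings gave 1814 of 13260, 945 of 13193, and 2511, 2568 and 2334 of 13260 lower. In the hypertrophic zone the 9 called genes were at or below their mineralized level. Of 18 cell cycle brakes and D cyclins 9 were called higher and 2 lower, with Cdkn1c, a cyclin-dependent kinase inhibitor, lower (-1.96) and Ccnd1, cyclin D1, higher (1.56).

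Genes of the CNP pathway varied in direction. Npr2 was at 692, 816 and 950.3 in the resting/proliferating and 799.9, 837 and 818 in the mineralized zone, with overlap (log2 0.01 ± 0.15; limma adjusted p = 0.971). Npr3, the receptor that removes natriuretic peptides, fell from 369.5, 271 and 237 to 159, 164 and 104, while the hypertrophic arrays read 1629, 2129.6 and 2354. The outer zones did not overlap (log2 -0.96 ± 0.22; limma adjusted p = 0.00307), but the call was lost without normalization and with the run as a block, at adjusted p up to 0.24. Of 15 natriuretic peptide and cyclic GMP genes tested, 6 were called higher and 2 lower, and without normalization or with the run as a block 0 were lower. Gucy1a1, a subunit of the nitric oxide-activated cyclase, rose from 64.4, 25.2 and 39.3 to 1389, 691 and 1421 (log2 4.31 ± 0.25), and Pde5a and Pde2a, phosphodiesterases that break cyclic GMP down, differed by 2.02 ± 0.21 and 1.82 ± 0.15. Other tested probe sets gave 2.09 to 2.28 for Gucy1a1, 0.207 to 1.54 for Pde5a and 0.898 to 1.69 for Pde2a. Prkg2, the kinase through which CNP acts in chondrocytes, was not called (0.50 ± 0.19; limma adjusted p = 0.0573) but passed without culture 4 (0.86; limma adjusted p = 0.00354), and Nppc, the CNP gene, was below the filter.

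Growth factor and kinase genes were less uniform. Among all genes tested 20.5% were called higher and 22.2% lower. Of the hedgehog genes 5 of 16 tested were called lower and 1 higher, led by Cdon, a hedgehog co-receptor (-3.35 ± 0.17). Of the IGF genes 5 of 16 were lower and 1 higher, with Igfbp2, an IGF-binding protein, at -2.40 ± 0.22 and Igfbp3, another, at 1.73 ± 0.26. FGF genes numbered 8 higher and 4 lower of 17, and Dusp6 and Spry4, which dampen ERK signalling, were higher (2.15 and 1.99). In the BMP and TGF-beta list 12 of 31 were higher and 7 lower, and Grem1, a BMP antagonist, fell from 2263, 4268 and 3067 to 301, 544 and 339 (log2 -2.97 ± 0.20). Id3, a BMP-responsive inhibitor of differentiation, rose (2.44 ± 0.13). Of 29 WNT genes tested 10 were called higher and 9 lower, with Dkk1, a secreted WNT antagonist, at 66.8, 90.9 and 39.2 against 1767, 1352 and 1258 (log2 4.21 ± 0.22). Of the p38 kinase genes 9 of 24 were higher and 1 lower, with Mapk14, p38 alpha, at 0.82 ± 0.12 and Dusp1, a phosphatase of p38, at 1.74 ± 0.13. Without normalization the number called lower was 2 hedgehog, 3 IGF, 2 FGF, 4 BMP and TGF-beta, 3 WNT and 0 p38 genes, and with the run as a block 3 hedgehog, 3 IGF and 5 WNT genes were lower and 6 WNT genes higher. Lower calls over all genes also dropped, from 2940 of 13260 to 945 of 13193 without normalization and 1814 of 13260 with the run as a block. With median centring 8 IGF genes were lower; without culture 3, 3 IGF genes were higher and 6 WNT genes lower, and without culture 4, 3 p38 genes were lower.

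Early response genes and several chemokine genes were higher. Of 19 immediate early genes tested, 16 were called higher and 0 lower, with a median of 1.29. Klf4, a zinc finger factor, rose from 881, 789 and 956 to 3939, 3411 and 3488 (log2 2.03 ± 0.18; limma adjusted p = 7.13e-07), and Junb, an AP-1 subunit, from 95.7, 118 and 122 to 373, 573 and 566 (log2 2.00 ± 0.20). Of 13 chemokine and cytokine genes tested of 25 measured, 7 were called higher and 1 lower. Ccr1, a chemokine receptor, rose from 12, 31.9 and 8.81 to 1467, 1732 and 1563 (log2 5.64 ± 0.30), Ccl9, a ligand of it, by 4.58 and Cxcl12, a chemokine of marrow stroma, by 2.22 on the log2 scale. The other tested probe set of Ccr1 gave 2.68. Cxcl14, another chemokine, fell from 199, 336 and 297 to 6.46, 6.84 and 34.8. Glycolysis and hypoxia genes were called 5 higher and 4 lower of 23, with Car9, a carbonic anhydrase induced by hypoxia, at -4.15 ± 0.31 and Ndrg1 at 1.30 ± 0.11. Those 21.7% and 17.4% stand beside 20.5% and 22.2% of all genes, but without culture 2 the glycolysis list had 3 higher and 10 lower, and with the run as a block 3 and 7. Of 23 protein folding and ER stress genes 8 were higher and 2 lower, and of 10 interferon-responsive genes 1 was higher and 2 lower. Without culture 2 those counts were 4 and 2 for the folding genes and 3 and 4 for the interferon genes, and without normalization 4 and 1 folding genes were called.

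Further genes among the 15 highest and 15 lowest have known roles outside these lists. Hp, the haemoglobin-binding protein haptoglobin, rose from 6.77, 3.23 and 4.55 to 904, 1203 and 1589 (log2 5.87 ± 0.25), and Ptprz1, a receptor-type phosphatase, from 101, 67 and 47.6 to 4368, 4091 and 3922 (log2 5.60 ± 0.22). Car3, a carbonic anhydrase, rose by 5.47, Lpar3, a lysophosphatidic acid receptor, by 5.51 and Tmie, an inner ear membrane protein, by 5.16 on the log2 scale. Each of these 5 had separate zones. The 15 highest and 15 lowest genes were chosen for large changes of the same sign in all 3 cultures, so separate zones add no support. Most list members named in this report were the called members with the largest changes, so their separate zones add no support either. How many of all genes had separate zones was not counted.

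At the other end, Agtr2, the type 2 angiotensin receptor, fell from 2865, 1556 and 2215 to 54.4, 21.3 and 41.4 (log2 -5.34 ± 0.19; limma adjusted p = 8.08e-11). Pcp4, a calmodulin-binding peptide, fell from 5118, 4295 and 3742 to 48.8, 72.5 and 75 (log2 -5.76 ± 0.36), and C1qtnf3, a secreted protein of growing cartilage, from 7136, 7065 and 7280.4 to 416, 306 and 279.8 (log2 -4.38 ± 0.18). Their zones did not overlap. Efemp1, an extracellular fibulin, A2m, a protease inhibitor, Angptl1, a secreted angiopoietin-like protein, and Mfap4, a microfibril protein, had log2 differences of -5.01, -4.68, -5.55 and -4.49. The other tested probe sets of Angptl1 gave -2.65 to -0.352. Rlbp1, a retinaldehyde-binding protein, differed by -4.36, and Kctd4, Pof1b, 2610528A11Rik and Pantr1 by -5.45, -4.34, -4.33 and -4.30.

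The hypertrophic zone did not lie between the others for every gene. For the 366 genes at least 4-fold higher, the hypertrophic mean was on the far side of the resting/proliferating mean for 91, nearer to it for 163, nearer to the mineralized mean for 90 and at or past it for 22. Of 217 genes at least 4-fold lower, those counts were 40, 98, 63 and 16. Of 15 called osteoclast genes, 13 were nearer the resting/proliferating level, and 12 of 13 called endothelial genes were below it in the hypertrophic zone. Of 20 osteoblast genes called higher, 12 were nearer the mineralized level. The hypertrophic values are shown as a description, since they share the arrays of the fit.

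No probe set passed the test of whether CNP changed the zone difference. In vehicle cultures 8477 probe sets (31.4%) and 4717 of 13260 genes (35.6%) were called for the zone itself. The difference between the 2 zone differences, CNP minus vehicle, gave 0 calls of 27022 (0%) in limma, with 2017 probe sets at an unadjusted p under 0.05 and a lowest adjusted p of 0.063. A p that misses the threshold does not show that the treatments act alike. Lipi, a lipase, had the smallest p, with differences of 2.05, 2.92 and 2.55 in the CNP cultures and 0.75, 0.45 and 0.32 in the vehicle cultures (2.00 ± 0.27; limma adjusted p = 0.063). Ibsp had a larger rise with CNP, 3.19 ± 0.17 against 1.87 ± 0.17 (difference 1.33 ± 0.24; limma adjusted p = 0.413). Egln3, a prolyl hydroxylase induced by hypoxia, had a smaller one, 1.26 ± 0.17 against 2.58 ± 0.17 (difference -1.32 ± 0.24; limma adjusted p = 0.413). Without CNP culture 3, 25 probe sets passed, 19 with a higher and 6 with a lower difference in CNP cultures, among them Lipi and Cetn4. Culture 3 differed from the others in hybridization day as well, and the part of the day was not tested.

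**Figure D3:**
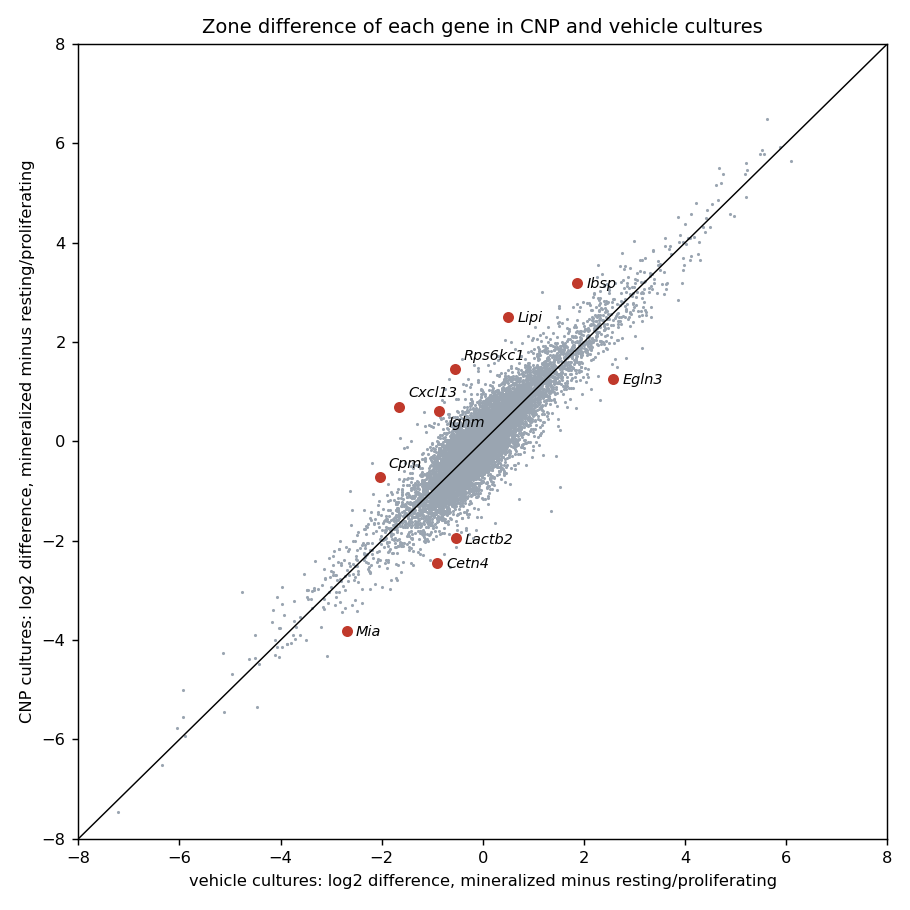
Log2 difference of mineralized minus resting/proliferating zone of each of 13260 genes in vehicle cultures (x axis) and CNP cultures (y axis), with the line of equal differences. Red points mark the 10 genes with the smallest p for the difference between treatments, none of which passed the adjusted threshold; Ibsp lay above the line at 3.19 against 1.87.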

How the data were processed

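Per the series design, the authors used GeneSpring 7.2. The probe-summarising software was not given in the sources used here. In the deposited table each probe set has a linear signal intensity per array. From it 64 controls were left out, the deposited intensity was quantile-normalized and log2(normalized signal + 16) was tested. Probe sets in the lowest 40% by mean (lowest mean kept, 68.3) were left out, leaving 27022 of 45037. Of these 45037, 34945 had 1 symbol, 932 several and 9160 none, and 34741 matched the gene table.

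Differences were fitted with limma 3.58.1 under R 4.3.3 (eBayes with trend, two-sided, Benjamini-Hochberg), checked on simulated data. The 3 zones of a culture come from the same pooled bones, which pairs the arrays; deviations within a culture correlated at 0.0721, 0.103 and 0.0894 for CNP cultures 2, 3 and 4 and 0.158, 0.399 and 0.101 for vehicle. The array titled vehicle resting/proliferating 4 names CNP as its treatment, and was grouped by its title. The genes named are the 15 highest and 15 lowest called genes with the same sign in all 3 cultures, up to 4 called members of each list, a fixed set of genes and the 10 smallest p of the difference. Members and lists were chosen with earlier results of these data known. The series design calls the cultures independent trials, each a pool of bones. The culture block removes level differences between these pools, so p-values measure how far zone differences vary from pool to pool. That spread was estimated jointly from all arrays of the fit, vehicle and hypertrophic arrays included, and not from the CNP pools alone. A gene therefore has the same SE in CNP and vehicle cultures. The number of arrays limits the precision.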

Additional observations from a re-analysis of the deposited data

Results flagged for a closer look

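For 4 genes the zone difference went one way in all 3 CNP cultures and the other way in all 3 vehicle cultures. Gmnn, the replication inhibitor, differed by -1.58, -0.63 and -1.08 in CNP cultures 2, 3 and 4 and by 0.21, 0.06 and 0.02 in vehicle cultures (difference -1.19 ± 0.31; limma adjusted p = 0.55). Cxcl13, a B cell chemokine, differed by 0.82, 0.36 and 0.88 and by -2.50, -1.08 and -1.39 (difference 2.34 ± 0.43; adjusted p = 0.413). Rps6kc1, a protein with a kinase-like domain, differed by 2.15, 0.53 and 1.71 and by -0.49, -0.73 and -0.44 (difference 2.01 ± 0.38; adjusted p = 0.463). Ighm, the immunoglobulin heavy chain, differed by 1.09, 0.32 and 0.42 and by -1.002, -0.83 and -0.74 (difference 1.47 ± 0.31; adjusted p = 0.532). None of the 4 passed the threshold, and genes not named here were not checked in this way.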

How the results depend on the processing

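The 10035 calls became 5435 without normalization, where the higher share of calls was 72.8% against 49.2% and the median of all tested probe sets was 0.233 against -0.0285, and 6081 with the fluidics run as a further block, which leaves culture 4 to carry the contrast; the cause was not tested. Leaving out 1 culture or array gave 7723 to 9757 calls. Without the replicate block, that is without the pairing by culture, 9530 were called. The difference between treatments gave 0 calls except for 3 without normalization, 4 with the run as a block, and 0 to 25 when 1 culture or array was left out (16 without CNP resting/proliferating replicate 3). Of 152 called named genes, 135 kept their call in each alternative that tested them (26, or 25 for genes dropped when the lowest 60% of probe sets were left out), 17 lost it in at least 1 (Ngp, Tnni1, Mylpf, Sox10, Tk1, Bub1, Gli3, Boc, Stc2, Igf1, Mapk11, Gbp2, Col2a1, Tnfrsf11b, Npr3, Cpm and Ighm) and 0 reversed. Most named genes were chosen for large changes in these data, so how often they kept their call says little about other genes. Of the 10035 called probe sets, 5142 were called again without normalization and 5738 with the run as a block. Leaving out the hypertrophic arrays (10043 calls) or the arrays with an aborted fluidics log (8707) was chosen after seeing the data.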
